A study of Homo sapiens with 8 samples.

Results

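Sites of the tumour suppressor p53 listed only with the solvent DMSO numbered 583 of 19877 regions. None of them overlapped or adjoined a peak of any other condition. They were chosen by the bounds of the deposited ChIP-seq peaks: overlapping or adjoining peaks of the 4 lists from U2OS cells were merged, and regions that held a DMSO peak and no peak of the other lists were kept. The absence of the other lists is thus the choice itself and not a result. Every one of the 583 consisted of exactly 1 DMSO peak, and together they made up 20.9% of the 2785 regions with a DMSO peak. The name "listed only with DMSO" holds for the bases of a peak and not for its surroundings, because 264 of the regions had a Nutlin-3 peak at most 1000 bp away and the other 319 had none so close.

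U2OS cells come from a human osteosarcoma and, by their labels, express their own wild-type p53. The cells received 0.1% DMSO, 10 µM Nutlin-3, 0.6 µg/ml doxorubicin or no treatment, and the labels give 24 h for each condition. DMSO was labelled as the control of Nutlin-3, and no treatment as that of doxorubicin. Each condition had 1 ChIP library, made with antibody DO-1 against p53, and 1 input library, all from the same cell line, so there were no replicates and no test between conditions was possible.

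p53 is a transcription factor that binds DNA as a tetramer, at response elements built from repeats of a short motif. In unstressed cells the ubiquitin ligase MDM2 binds p53 and has it degraded, so that little p53 is present. Nutlin-3 occupies the p53 pocket of MDM2 and lets p53 build up, while doxorubicin does so through DNA breaks. Cells given the solvent alone are the usual reference for such a treatment.

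The lists held 2793 peaks for DMSO, 18159 for Nutlin-3, 3087 for doxorubicin and 496 for no treatment. A peak was given by its bounds alone (build hg18), with no height, score or read count, so the depth is unknown. All bounds sat on a grid of 20 bp, and the narrowest peaks were 40 bp wide. Within a list, neighbouring peaks were at least 120 bp apart for DMSO, 60 bp for Nutlin-3, and 180 bp for both doxorubicin and no treatment. An hg18 genome and gene annotation were not used here, so regions are described by position, width and spacing, and no gene or sequence is assigned to them. Intervals below are exact 95% binomial intervals, which cover counting error only and treat regions as independent.

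The first question was how many DMSO-only sites had a Nutlin-3 peak close by and how many did not. Of the 583 regions, 264 (45.3%, 41.2 to 49.4) had a Nutlin-3 peak within 1000 bp and 319 (54.7%, 50.6 to 58.8) did not. Over all 1754 regions of any list that held no Nutlin-3 peak, the share with one within 1000 bp was 30.1% (528 regions). This pool includes the DMSO-only regions themselves, which supplied 264 of the 528. For regions held by doxorubicin alone the share was 24.9% (21.7 to 28.2; 174 of 700), and for regions held by no treatment alone it was 22.7% (18.1 to 27.8; 69 of 304). The DMSO-only share was the highest of the 3 sets, and its interval did not reach those of the other two. With chromosomes Y and M and crowded stretches of untreated peaks (at least 5 with gaps of at most 20 kb) left out, the shares were 45.3%, 29.1% (25.4 to 32.9) and 25.7% (20.5 to 31.4) in the same order. The shares fell when peaks up to 100 bp apart were merged (24.5%, 8.57% and 18.5%) or 40 bp peaks were left out (25.9%, 19.0% and 18.6%), with DMSO still the highest, although its interval then overlapped that of no treatment in both cases. With peaks up to 500 bp apart merged they were 3.96% (13 of 328), 2.05% and 8.26%, and the untreated set was then the highest. All 3 sets were measured against the same Nutlin-3 list, and with 1 library per condition the difference between them was not tested.

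**Figure D1:**
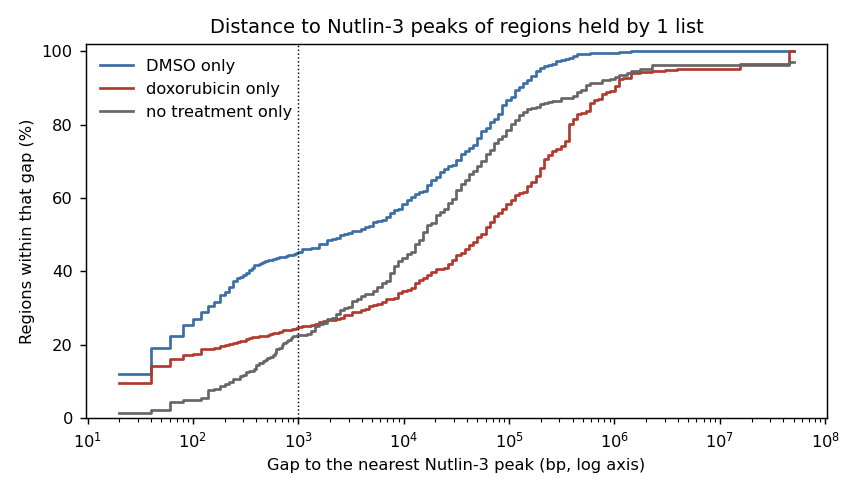
Cumulative share of regions (vertical axis, %) whose gap to the nearest Nutlin-3 peak is at most the value on the horizontal axis (bp, log scale), for regions held by the DMSO, doxorubicin or untreated list alone; the dotted line marks 1000 bp. At 1000 bp the DMSO curve stands at 45.3%, against 24.9% for doxorubicin and 22.7% for no treatment, whose curve stays under 100% because chromosome M has no Nutlin-3 peak.

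Most of the 264 regions beside a Nutlin-3 peak missed it by very little. The gap, measured from edge to edge, ranged from 20 to 1000 bp with a median of 80 bp and quartiles of 20 and 200 bp. It was 20 bp, the smallest step the grid allows between peaks that do not adjoin, in 70 regions, 40 bp in 42, 60 bp in 19, 80 bp in 17 and 100 bp in 10. These 158 regions (59.8%, 53.7 to 65.8) lay closer to a Nutlin-3 peak than any DMSO peak lay to another DMSO peak. In 112 of them the gap was also smaller than any gap inside the Nutlin-3 list. Gaps between lists can go down to the grid step, whereas those within a list did not, so both comparisons describe scale only. Farther out the numbers dropped to 43 regions at 120 to 200 bp, 27 at 220 to 300 bp, 16 at 320 to 400 bp and 20 from there to 1000 bp. The Nutlin-3 peak was on the right of the DMSO peak in 126 regions (47.7%, 41.6 to 53.9) and on the left in the other 138. Regions of doxorubicin alone showed small gaps as well, with 123 of 174 (70.7%, 63.3 to 77.3) up to 100 bp, whereas in untreated cells 15 of 69 (21.7%, 12.7 to 33.3) were that close.

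Close to the rule's limits, the values ran on without a break. A further 131 DMSO-only pieces that merely adjoined another peak, at a gap of 0, counted as shared and were left out. At the limit of 1000 bp the largest gaps inside were 1000 and 960 bp, and the smallest outside were 1020 and 1040 bp.

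The regions beside Nutlin-3 peaks were of 2 kinds, which differed in whether a further DMSO peak was near. In 167 of the 264 the DMSO peak was alone, with the next DMSO peak 1220 bp away or more. The other 97 (36.7%, 30.9 to 42.9) had another DMSO peak within 1000 bp, against 14.3% (12.9 to 15.9) of the 2210 DMSO peaks that shared a region with another list. Over all 583 DMSO-only regions the share was 16.6% (13.7 to 19.9), close to that of the shared peaks. All 97 fell into the class beside Nutlin-3, which the split by distance largely fixes. For 93 of them the nearest other DMSO peak was itself in a region with Nutlin-3. The contrast of 36.7% with 14.3% is therefore not a result about the class. The division into these 2 kinds was made after the lists were examined.

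**Figure D2:**
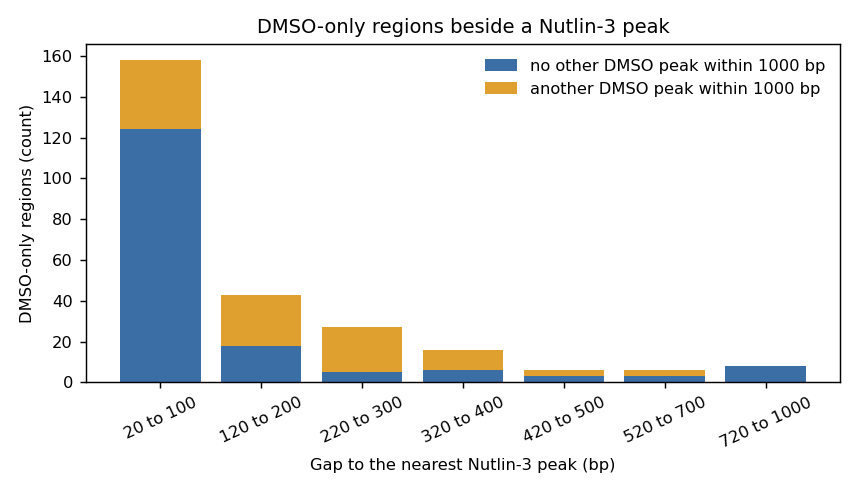
Number of DMSO-only regions (vertical axis) by the gap to the nearest Nutlin-3 peak (horizontal axis, bp), split by whether another DMSO peak lies within 1000 bp. The first class, 20 to 100 bp, holds 158 of the 264 regions, 124 of them with no other DMSO peak near, and from 120 to 400 bp regions with another DMSO peak are the more numerous.

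The 167 lone DMSO peaks mostly had a single Nutlin-3 peak close by. In 124 (74.3%, 66.9 to 80.7) the gap was at most 100 bp. Over all 167 the gap had a median of 40 bp, and the midpoints of the DMSO and the Nutlin-3 peak were a median of 120 bp apart. Exactly 1 Nutlin-3 peak lay within 1000 bp in 132 of the 167 (79.0%, 72.1 to 84.9). In the whole list of 18159 Nutlin-3 peaks, 2454 gaps between neighbours were up to 1000 bp, so most Nutlin-3 peaks stood apart as well. The nearest Nutlin-3 peak was in a region of Nutlin-3 alone in 143 cases (85.6%, 79.4 to 90.6). In the other 24 (14.4%) it was in a region shared by Nutlin-3 and doxorubicin. None was in a region with DMSO, which the absence of a near DMSO peak makes rare. Among the 15946 Nutlin-3 peaks in regions without DMSO, 94.8% (94.4 to 95.1) were in regions of Nutlin-3 alone and 5.004% (4.67 to 5.35) in regions shared with doxorubicin. The Nutlin-3 peak was wider than the DMSO peak in 60 cases, of the same width in 59 and narrower in 48. Its median width was 60 bp, as in the whole Nutlin-3 list.

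The 97 regions with another DMSO peak lay beside sites that several lists shared. For 93 of them (95.9%, 89.8 to 98.9) the nearest other DMSO peak was in a region with Nutlin-3, and for 77 (79.4%, 70.0 to 86.9) that region also held doxorubicin. Among all regions with a DMSO peak, 78.3% held Nutlin-3 and 50.5% held both, and the 97 had already been chosen for a Nutlin-3 peak within 1000 bp. The Nutlin-3 peak nearest to the DMSO-only peak itself was in a region of Nutlin-3 alone in 37 of the 97 (38.1%, 28.5 to 48.6). The distance to that DMSO peak was 120 to 940 bp, with a median of 260 bp. At least 2 Nutlin-3 peaks lay within 1000 bp in 69 of the 97 (71.1%, 61.0 to 79.9), and in 29 there were Nutlin-3 peaks on both sides. The gap to the nearest Nutlin-3 peak was larger than for lone peaks, with a median of 180 bp and 34 regions (35.1%, 25.6 to 45.4) at 100 bp or less. The division itself bears on this, because DMSO peaks were at least 120 bp apart. For 59 of the 97 the nearest Nutlin-3 peak was in a region with a DMSO peak, against 0 of the 167 lone regions. The DMSO-only peak was not regularly the smaller of the DMSO peaks: it was narrower than its nearest DMSO neighbour in 24 cases, as wide in 39 and wider in 34.

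The distance to doxorubicin peaks is given as a description, because the choice of regions and their split bear on it. Of all doxorubicin peaks 71.8% were in a region with Nutlin-3, which lowers the number that can lie near regions far from Nutlin-3. Still, 526 of the 700 regions of doxorubicin alone were over 1000 bp from a Nutlin-3 peak. A doxorubicin peak lay within 1000 bp of 114 of the 583 DMSO-only regions (19.6%, 16.4 to 23.01), while it lay on or within 1000 bp of 60.0% of all DMSO peaks. The rule removed every DMSO peak in a region with doxorubicin, which lowers the first share. Of the 97 regions with another DMSO peak, 85 (87.6%, 79.4 to 93.4) had doxorubicin within 1000 bp. Of the 167 lone regions beside Nutlin-3 the number was 27 (16.2%, 10.9 to 22.6), and of the 319 regions far from Nutlin-3 it was 2 (0.627%, 0.0760 to 2.25). For all Nutlin-3 peaks the corresponding share was 19.1%, and for DMSO peaks in shared regions it was 70.6% (68.7 to 72.5). Untreated peaks were rare near all of them, with 3 of 583 regions (0.515%, 0.106 to 1.496) within 1000 bp, and 20 of 2210 (0.905%) for DMSO peaks in shared regions.

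Single loci show these arrangements. The widest regions beside a Nutlin-3 peak were 2 of 300 bp. That at chr12:123988451-123988751 ended 20 bp before a Nutlin-3 peak of 160 bp (123988771 to 123988931), which in turn overlapped a DMSO peak of 400 bp (123988891 to 123989291). It thus stood at the left edge of a group of peaks, with 4 Nutlin-3 peaks within 1000 bp on its right. That at chr8:29684731-29685031 followed 2 DMSO peaks of 40 bp, each with the same bounds in the Nutlin-3 list, the nearer 360 bp away. Here the DMSO-only peak was wider than either of them.

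The next widest stood alone. The region at chr16:3013291-3013551 (260 bp) had a Nutlin-3 peak of 40 bp at a gap of 800 bp and no other DMSO peak for 187 kb. The region at chr5:73726691-73726931 (240 bp) had a Nutlin-3 peak of 160 bp at a gap of 60 bp. On chr10:123360671-123360911 (240 bp), a Nutlin-3 and a doxorubicin peak both lay 20 bp away, and the next DMSO peak was 278 kb off. Each of these 3 was a single DMSO peak with a narrower Nutlin-3 peak 20 to 800 bp away.

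Other wide peaks at the smallest gap of 20 bp were at chr4:84175131-84175311 (180 bp), chr2:27127071-27127231 (160 bp) and chr12:21863171-21863311 (140 bp). Each was alone in the DMSO list within 1000 bp, and the nearest Nutlin-3 peak, of 40, 40 and 160 bp in the same order, was in a region of Nutlin-3 alone. These are the widest of the 70 regions at that gap, of which 56 were 40 or 60 bp wide. The regions with the largest gaps lay at chr20:43402431-43402471 (1000 bp away), chr6:47211571-47211611 and chr17:67894471-67894511 (960 bp each), and chr2:20646971-20647051 and chr17:50865731-50865791 (920 bp each). Each of the 5 was 40 to 80 bp wide, stood alone in the DMSO list within 1000 bp and had 1 Nutlin-3 peak within that distance.

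**Figure D3:**
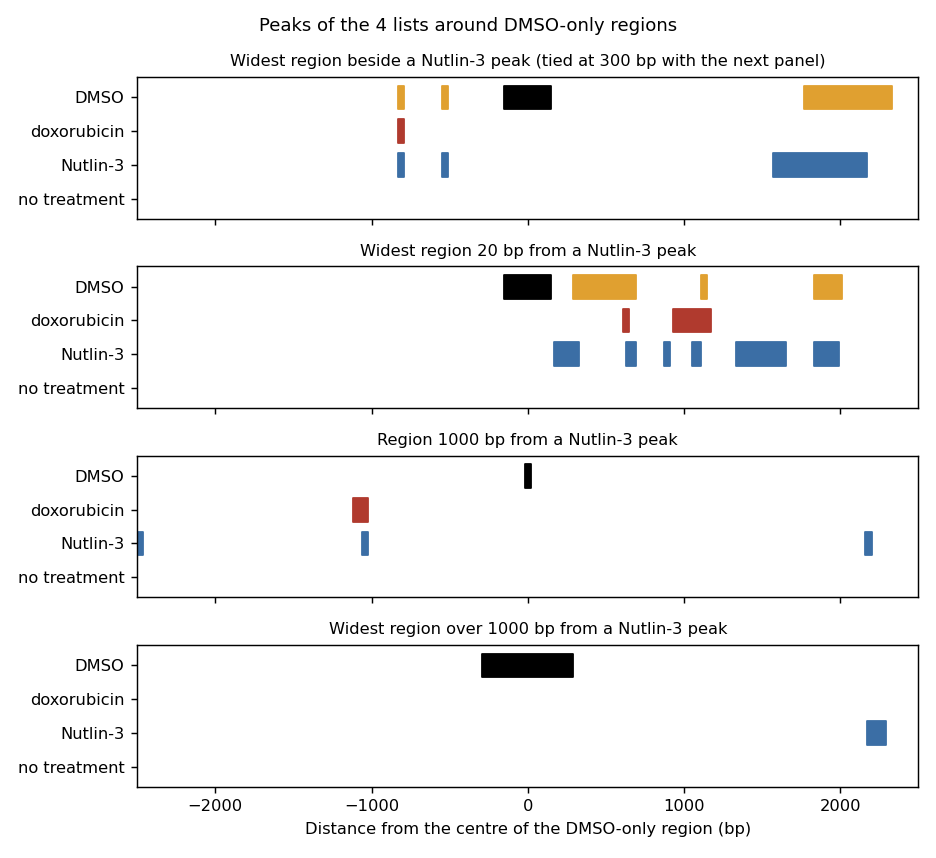
Peaks of the 4 lists (rows) around 4 DMSO-only regions (black bars), by distance in bp from the centre of that region. The upper 2 regions, both 300 bp wide, stand beside groups of shared peaks, the third has its nearest Nutlin-3 and doxorubicin peaks at a gap of 1000 bp on its left, and the last, 580 bp wide, has 1 Nutlin-3 peak at a gap of 1880 bp.

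Neighbouring DMSO-only regions formed pairs at most. With gaps of at most 20 kb there were 0 runs of at least 3 regions and 15 pairs. The other 553 of the 583 regions were in no run. The number of pairs was not set against a background, so whether the regions cluster was not tested. The rule kept 20.9% of the DMSO peaks, which by itself breaks up runs. In 11 of the pairs both members were beside Nutlin-3 peaks, in 2 both were far from them, and 2 were mixed. In 6 pairs both members lay within 1040 bp, and these pairs were picked after they were seen. On chromosome 3 the DMSO-only peaks from 154514191 to 154514231 and from 154514631 to 154514731 flanked a DMSO peak of 120 bp (154514391 to 154514511) that held a Nutlin-3 and a doxorubicin peak inside it. On chromosome 1 the DMSO-only peaks from 232926571 to 232926611 and from 232926891 to 232926931 alternated with 40 bp Nutlin-3 peaks, with 1 of those between them and 2 to their left. On chromosome 11 the peaks from 47193391 to 47193451 and from 47193811 to 47193931 likewise had a Nutlin-3 peak of 60 bp between them. The 2 pairs far from Nutlin-3 were at chr14:53646311-53650651, with no peak of another list in the span, and at chr15:61092371-61104311, with 1 Nutlin-3 peak in it.

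The 319 regions farther than 1000 bp from a Nutlin-3 peak mostly had no other peak near. They made up 11.4% (10.3 to 12.7) of the DMSO list. The gap to the nearest Nutlin-3 peak had a median of 37.8 kb and quartiles of 10.3 and 91.7 kb, with 45 regions up to 5 kb, 34 from there to 10 kb, 166 from there to 100 kb, 72 from there to 1000 kb and 2 beyond. Another DMSO peak within 1000 bp was found for 0 of 319, which allows a share of up to 0.940% by a limit of 3 counts, or 1.15% by the exact interval. The rule makes this rare, since a DMSO peak in the neighbourhood would usually bring a Nutlin-3 peak with it. The nearest other DMSO peak was a median of 209 kb away, and 229 regions (71.8%, 66.5 to 76.7) had none within 100 kb. For DMSO peaks in shared regions the values were 189 kb and 61.3% (59.2 to 63.3), so wide spacing was common in the whole list. In 234 of the 319 (73.4%, 68.1 to 78.1) no peak of any other list lay within 10 kb. The split had already set all peaks of Nutlin-3, the longest list, over 1000 bp away. This share was not taken for other sets, so it is not shown to be particular to the far regions.

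The wider surroundings of the far regions held Nutlin-3 peaks about as often as those of other DMSO peaks. Between 1000 bp, the limit of the rule, and 50 kb, 137 (42.9%) had no Nutlin-3 peak (37.4 to 48.6), against 41.0% (38.9 to 43.1) of the DMSO peaks in shared regions. For regions of doxorubicin alone that were over 1000 bp from Nutlin-3, 67.3% had none, and the median gap was 142 kb (110 kb without the crowded stretches and chromosomes Y and M). The far regions of no treatment resembled the DMSO ones in these values, with 40.4% of 235 having none. Their median gap was 28.9 kb over the 226 on chromosomes with a Nutlin-3 peak. Without the crowded stretches and chromosomes Y and M it was 28.25 kb. The differences between these sets were not tested.

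The widest of the far regions was at chr22:25834531-25835111. At 580 bp it was the widest of all 583, and a Nutlin-3 peak of 120 bp followed at a gap of 1880 bp. The next were at chr2:144901171-144901431 and chr11:90477051-90477311 (260 bp each), chr9:96715191-96715431 (240 bp) and chr1:1300511-1300711 (1 of 4 with 200 bp). Their gaps to Nutlin-3 were 69.0 kb, 165 kb, 1.08 kb and 46.1 kb, so wide peaks occurred both just past the limit and far from any Nutlin-3 peak.

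The regions farthest from the other lists can be named in turn. The region farthest from every other list was at chr4:64087551-64087611 (60 bp), with the nearest peak, a Nutlin-3 peak, 1042 kb away. It was followed by regions at chr5:39894011-39894071 (572 kb), chr8:78074451-78074511 (551 kb), chr11:21792471-21792511 (516 kb) and chr16:79598351-79598431 (423 kb). These 5 were 40 to 80 bp wide, but wider peaks were found in such places too: of the 71 far regions over 100 kb from every other list, 12 (16.9%, 9.05 to 27.7) were at least 100 bp wide and the widest had 260 bp.

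Few far regions were close to a list other than Nutlin-3, and as they were 5 or fewer they were named after being seen. Untreated peaks lay 300 bp from the region at chr7:89679011-89679151 and 280 bp from that at chr10:74597811-74597851. Doxorubicin peaks lay 20 bp from the region at chr15:33514971-33515011 and 440 bp from that at chr20:28225311-28225451, whose nearest Nutlin-3 peak was 1393 kb away. Among the regions beside Nutlin-3, 1 had an untreated peak within 1000 bp: at chr1:154453231-154453271, with an untreated peak at a gap of 20 bp, doxorubicin at 60 bp and Nutlin-3 at 340 bp.

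DMSO-only peaks were less often wide than other DMSO peaks. Peaks of 60 and 80 bp took a larger share of those far from Nutlin-3 than of DMSO peaks in shared regions. The smallest width, 40 bp, was found in 46.5% (42.4 to 50.6) of the 583 regions and in 47.8% (45.7 to 49.9) of the 2210 DMSO peaks in shared regions. A width of at least 100 bp was found in 18.5% (15.5 to 21.9) and 29.0% (27.1 to 30.9). Peaks over 300 bp numbered 1 among the 583 and 50 among the 2210. Wider peaks also have more room to touch a peak of another list, and this was not set apart here. Between the distance classes, 40 bp peaks made up 52.3% (46.1 to 58.4) beside Nutlin-3 and 41.7% (36.2 to 47.3) far from it, with 60 bp peaks at 24.2% (19.2 to 29.9) and 30.1% (25.1 to 35.5), against 19.8% (18.1 to 21.5) in shared regions. Peaks of 80 bp made up 5.68% (3.21 to 9.20) and 9.09% (6.17 to 12.8), against 3.39% (2.68 to 4.24). At 60 and at 80 bp the intervals of the distance classes overlapped. Widths of at least 100 bp were about as frequent in either class, at 17.8% (13.4 to 22.96) and 19.1% (14.95 to 23.9). The median width was 40 bp beside Nutlin-3 and 60 bp far from it, a difference of 1 grid step.

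**Figure D4:**
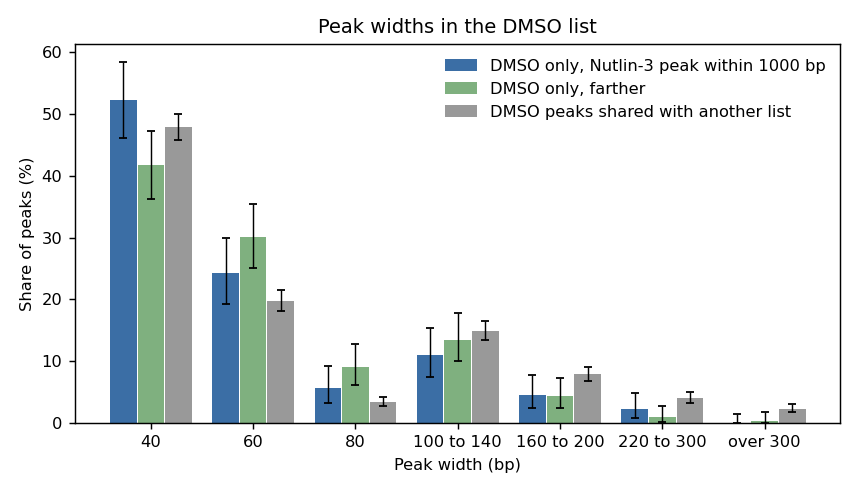
Share of peaks (vertical axis, %) by width (horizontal axis, bp) for DMSO-only regions beside and far from Nutlin-3 peaks and for DMSO peaks in shared regions; bars start at 0 and whiskers are exact 95% binomial intervals. The DMSO-only classes bracket the shared peaks at 40 bp (52.3% and 41.7% against 47.8%) and lie under them above 140 bp.

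DMSO-only regions were spread over the chromosomes much as the DMSO list was. All 23 chromosomes with a DMSO peak (1 to 22 and X) held at least 4 of them, and the DMSO list had 0 peaks at chromosomes Y and M. As a share of the DMSO peaks of a chromosome they ranged from 8.33% at chromosome X (4 of 48; 2.32 to 19.98) to 27.9% at chromosome 14 (29 of 104; 19.5 to 37.5), around 20.9% in the whole list. Chromosome X was the only chromosome whose interval left out the value of the whole list. Regions beside Nutlin-3 ranged from 0 at chromosome 21 to 23 on each of chromosomes 1 and 6, and every chromosome's interval took in the 9.45% of the whole list. Regions far from Nutlin-3 were most numerous at chromosome 7, with 32, or 18.7% (13.2 to 25.4) of its 171 DMSO peaks against 11.4% overall. That was the only interval of the 23 for far regions that left out the overall value, and the intervals were not adjusted for the 23 chromosomes looked at.

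**Figure D5:**
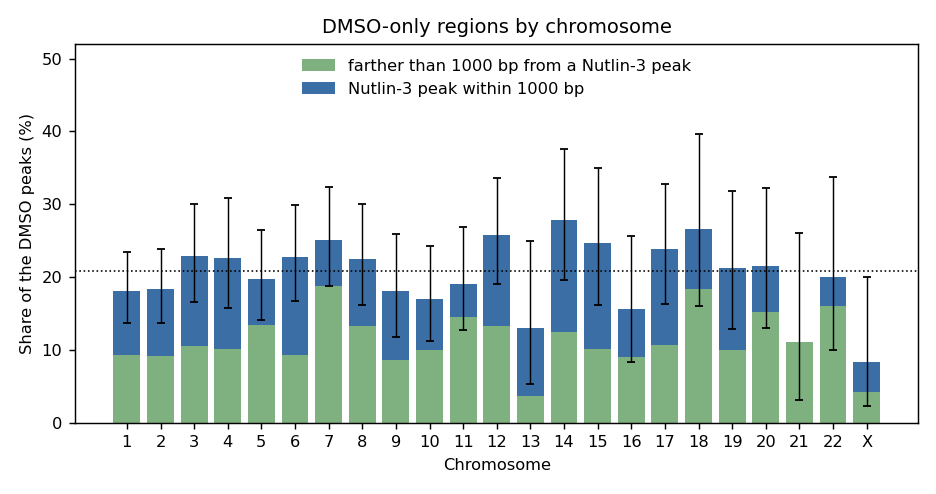
Share of the DMSO peaks of each chromosome (vertical axis, %) that are DMSO-only regions, split by distance to Nutlin-3 peaks; whiskers are exact 95% binomial intervals of the whole bar and the dotted line is the value of the whole list, 20.9%. Chromosome X, at 8.33%, is the only bar whose interval lies under the line, and chromosome 21 has no region beside a Nutlin-3 peak.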

How the data were processed

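Per the series' labels, p53 ChIP DNA and input DNA from U2OS cells were sequenced in 4 conditions. The authors deposited 1 list of peak positions (chromosome, start and end, in bp) for each of the 4 ChIP libraries. The submitters' processing notes name hg18, CASAVA and Bowtie 0.12.2. For the peak caller and its threshold nothing is stated (not given in the sources used here), nor is whether an end belongs to its peak, which leaves 1 bp open.

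Peaks were merged where they overlapped or adjoined, and gaps were measured from edge to edge with Python 3.11.15 (numpy 2.4.6, pandas 2.3.3, scipy 1.17.1). The region counts were checked with bedtools 2.31.1, and the code was tested on simulated data. Annotation and sequence, which had been planned for the case of a genome of the same build, were not analysed here. The set of regions and its split were chosen with earlier results of these data known. Regions are named by a rule: the 5 widest of each distance class, the 5 with the smallest and the 5 with the largest gap among those beside Nutlin-3, the 5 farthest from the other lists, and any run of at least 3. Ties, such as 70 regions at the smallest gap, 3 of 240 bp beside Nutlin-3 and 4 of 200 bp far from it, were broken by width where the gap was ranked, then by chromosome and start.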

Additional observations from a re-analysis of the deposited data

How the results depend on the processing

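Of 60 values recomputed under 13 alternatives, 43 stayed within the interval or within 1.5 times of the reported value and 17 moved. How peaks were merged had the most effect, by construction. With peaks up to 500 bp apart merged, 328 DMSO-only regions were left, 13 of them (3.96%) beside a Nutlin-3 peak, 41.5% were 40 bp wide and 0.610% had another DMSO peak within 1000 bp. With peaks up to 100 bp apart merged, an alternative added after the data were seen, 103 regions (24.5%) were beside Nutlin-3. With adjoining peaks kept apart the share was 55.0%. Without 40 bp peaks, 504 regions were far from Nutlin-3 and 25.9% were beside it. In the widest 50% of each list the numbers were 592 far and 147 beside (19.9%). This setting shortened all 4 lists, and the part of each was not set apart. Leaving out regions with a doxorubicin or untreated peak within 1000 bp gave 152 beside Nutlin-3 (32.5%). Without the doxorubicin list the share was 49.6%, and with a limit of 5000 bp it was 53.002%. No paired analysis was possible because each condition had 1 library. The depth is unknown, so p53 missing from a list cannot be told apart from too few reads to list it.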
